A study of Arabidopsis thaliana with 10 samples.

Results

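The plastid genome of Arabidopsis keeps genes for its own transcription and translation, and 32 of the 22746 probe sets on the array that were not controls measured these genes and a few other plastid genes. They were taken by probe set number and by gene symbol: 4 probe sets for subunits of the RNA polymerase (rpo), 11 for proteins of the small ribosomal subunit (rps), 9 for proteins of the large subunit (rpl) and 8 for other genes (ycf1, ycf2, ycf3, ycf4, clpP, accD, matK and cemA). The 32 probe sets named 31 genes, since rps12 had 2. Of the other genes, only matK has a role in gene expression, so the 8 are described on their own. A 33rd probe set met the rule by its symbols, rps3 and rpl16, but its gene IDs were not those of the plastid genes, which had probe sets of their own, and it was left out. The signals of 7 probe sets were shared by the entries of a gene listed more than once, those of ycf1, ycf2, rpl2, rpl23, rps7 and, for both of its probe sets, rps12.

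Plastids are transcribed by 2 kinds of RNA polymerase. The bacterial-type enzyme has a core of plastid-encoded subunits, alpha from rpoA, beta from rpoB and a beta-prime that is split between rpoC1 and rpoC2, and it relies on sigma factors made in the nucleus. The other kind is a single-subunit enzyme encoded in the nucleus, which transcribes the rpoB operon in plants. Plastid ribosomes resemble those of bacteria and mix plastid-encoded with nuclear-encoded proteins. In cells without light, such as a dark-grown culture, plastids still make fatty acids and amino acids and so still need this apparatus.

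The cells were Arabidopsis thaliana MM2d, a suspension line kept in continuous darkness, and no mutation or transgene was named in the labels. All 10 samples had been held for 24 h with aphidicolin, an inhibitor of replicative DNA polymerases, and then washed. They were taken at 0, 2, 4, 6, 8, 10, 12, 14, 16 and 19 h after the wash, with 1 array at each time and no replicate. All were from 1 course of 1 culture, so a p-value speaks of the scatter among these arrays alone, and cells never blocked were not analysed here. For comparisons the times were grouped in windows, late (14, 16 and 19 h, n = 3), middle (6, 8, 10 and 12 h, n = 4) and early (0, 2 and 4 h, n = 3), whose samples are neighbouring times and stand in for replicates. Values are MAS5 signals, scaled to the same trimmed mean on each array, and differences are on the log2 scale. Arrays had median signals of up to 43.6. The 2 h and 0 h arrays stood farthest from the rest, with a mean correlation to the others of 0.864 and 0.912, against 0.926 to 0.946 for the remaining 8. Of 19 nuclear genes of photosynthesis listed as a sign of green cells, 4 had a probe set named. Of these, PSAE-1 was at the floor at 0 h and 2 h. All 4 were higher in the late than in the early window, by 0.91 to 1.43, and 2 of these passed the test, RCA and PORB. Whether this had a part in the values of the plastid genes was not tested. In these bulk samples, fewer plastids or plastid genomes per cell and less RNA from each cannot be told apart.

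All 32 probe sets passed the filter on low mean signal, and none was at the floor on any array. A smooth curve of time (limma, a natural cubic spline with 4 degrees of freedom, adjusted over all 13647 probe sets tested) called 3 of the 32, rpoC1, rpl22 and rpl32, while 5.57% of all tested probe sets were called. At an unadjusted p under 0.05 there were 9 of 32, against 24.8% of all tested. The fitted range, the highest less the lowest point of the curve, had a median of 0.71 over the 32 and 0.64 over all tested probe sets. The 3 called genes followed 3 different courses.

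The polymerase gene rpoC1, for the beta-prime subunit, was highest directly after the wash and lowest at 6 h. Its signal was 551 at 0 h, 307 at 2 h, 280.1 at 4 h, 235 at 6 h, 321 at 8 h, 334 at 10 h, 331 at 12 h, 381 at 14 h, 402 at 16 h and 482 at 19 h. From 14 h on each value was above the one before it, and the last stood below the 0 h value. The fitted range was 1.07 log2 units (limma F test, adjusted p = 0.0251). The late window was above the middle window in every sample, by 0.47 (SE 0.22), and the middle was 0.26 (SE 0.22) below the early window, and neither difference passed (adjusted p = 0.958 and 0.525). This call passed on leaving out either 0 h or 2 h. It was lost with 5 spline terms (adjusted p = 0.0544), with no filter on low signals (0.0699) and with a variance prior common to all levels (0.0628). It was also lost without the array of 4, 6, 8, 10, 12, 14, 16 or 19 h (adjusted p 0.0567 to 0.104; 0.00596 to 0.104 over all alternatives), while the fitted range then stayed between 0.96 and 1.12.

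With all arrays in the fit, none of the other 3 polymerase genes was called (limma; rpoA alone had an unadjusted p under 0.05, in 2 window comparisons). For rpoA, the alpha subunit, the signal was 736, 749, 654, 563, 626, 527, 555, 691, 642 and 719.8 at the successive times. These values were high early and late and low between, with all 4 middle samples below every late and every early sample. In middle against early, windows lay apart in this way for 2 of 32 lower and 3 higher, against 5.61% and 10.5% of all tested, and in late against middle for 6 higher and 0 lower, against 6.16% and 4.94%. The middle window was 0.33 (SE 0.10) below the early window (limma, adjusted p = 0.0988), and the late window 0.27 (SE 0.10) above the middle window (adjusted p = 0.937). Without the 4 h array the first of these passed, at -0.39 (adjusted p = 0.0332; 0.0332 to 0.553 over all alternatives).

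The gene of the beta subunit, rpoB, gave 36.8, 48.8, 50.8, 77.6, 57.8, 51.9, 53.7, 58.4, 52.7 and 67.1 at the same times. It was lowest at 0 h, where rpoC1 was highest, and highest at 6 h, where rpoC1 was lowest. The late and the middle samples all lay above the early samples, with differences of 0.39 (SE 0.21) and 0.40 (SE 0.19) from the early window (limma, adjusted p = 0.276 and 0.255). For rpoC2, the beta-double-prime subunit, the signals were 75.7, 39.2, 49.5, 71.9, 51.4, 57.5, 62.6, 52.4, 66.1 and 57.5. They scattered with no smooth course, with a residual SD of 0.35 around the curve against 0.13 for rpoC1 (limma F test, adjusted p = 0.924). The genes rpoB, rpoC1 and rpoC2 lie next to each other on the plastid genome and are known to be transcribed together. Their signals differed on these probe sets, but only rpoC1 was called. Mean signals of rpoB and rpoC2 were low (55.6 and 58.4, against 363 for rpoC1), and their courses were not told from scatter. Both rpoC1 and rpoC2 were highest at 0 h and lower at 2 h (-0.84 and -0.95).

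**Figure D1:**
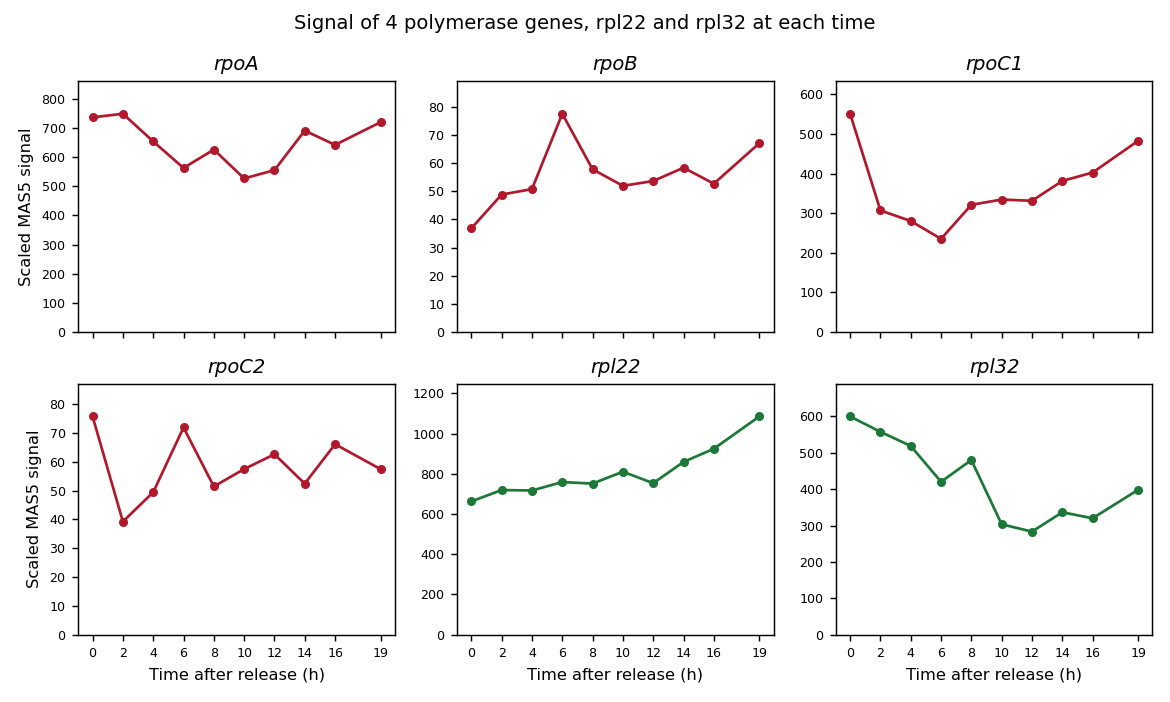
Scaled MAS5 signal (linear axis starting at 0) against time after release in hours for rpoA, rpoB, rpoC1 and rpoC2 in red and for rpl22 and rpl32 in green, 1 point for each array. The rpoC1 line dips to 235 at 6 h and ends at 482, rpl22 climbs to 1085 at 19 h, and rpl32 is lowest at 12 h with 283.

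Among proteins of the large ribosomal subunit, rpl22 was higher the later the window. Its signals were 663, 719.6, 717, 759, 752, 811, 754, 859, 925 and 1085 at the successive times. Every late sample was above every middle sample, and every middle sample above every early sample. The fitted range was 0.70 (limma F test, adjusted p = 0.0461). The late window was 0.44 (SE 0.11) above the early window (limma, adjusted p = 0.0436), the only member called in a window comparison, where 4.06% of all tested probe sets were called, 2.26% higher and 1.8% lower. Late and early windows lay apart for 4 of 32 higher and 1 lower, against 16.8% and 9.63% of all tested. With each array centred on its median, the difference was 0.29 and was not called (adjusted p = 0.313). Median centring also ended the time course call of rpl22 (adjusted p = 0.136), as did quantile normalization (0.0551) and a variance prior common to all levels (0.149). Leaving out both 0 h and 2 h (0.0593) or using 5 spline terms ended it too. That call was also lost without the array of 4, 6, 8, 10, 12, 14, 16 or 19 h (adjusted p 0.0742 to 0.274; 0.0237 to 0.274 over all alternatives), and without 19 h the fitted range was 0.47. The call between windows was lost without any 1 array other than that of 4 h (adjusted p 0.0515 to 0.142; 0.0203 to 0.313 over all alternatives).

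The signal of rpl32 ran the other way, with 599.9, 558, 519, 420.4, 480.2, 304, 283, 337, 320.0 and 398 at the successive times. The 3 early samples were above all later ones, and the lowest value came at 12 h. The fitted range was 0.98 (limma F test, adjusted p = 0.0455). The late window was 0.67 (SE 0.19) and the middle window 0.62 (SE 0.18) below the early window (limma, adjusted p = 0.0733 and 0.0959). With 12 h, the time of its lowest value, counted as late, the late window was 0.75 below the early window and passed (limma, adjusted p = 0.0241). This was the only 1 of 20 alternatives in which late against early passed for rpl32 (adjusted p 0.0241 to 0.306 over all alternatives). The time course call was lost without the array of 4, 6, 10, 12, 14, 16 or 19 h (limma F test, adjusted p 0.0646 to 0.129). It was also lost with quantile normalization (adjusted p = 0.0576), with no filter on low signals (0.134) and with a variance prior common to all levels (0.100). Leaving out both 0 h and 2 h (0.0669) or using 5 spline terms ended it too (0.0204 to 0.134 over all alternatives).

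The widest fitted range of the large subunit, 1.19, belonged to rpl33, which was not called (limma F test, adjusted p = 0.230). It was lowest at 4 h with 215 and highest at 19 h with 588, and gave 330.4, 247, 418, 373, 264, 323, 310.4 and 446 at 0, 2, 6, 8, 10, 12, 14 and 16 h. The late window was 0.74 (SE 0.25) above the early window (limma, adjusted p = 0.112). Its neighbour on the genome, rps18 of the small subunit, was likewise lowest at 4 h, with 141, and highest at 19 h, with 310.2. Without the 0 h and 2 h arrays both were called in the time course (limma, adjusted p = 0.0236 for rpl33 and 0.0330 for rps18).

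The flattest of the large subunit were rpl36 and rpl20. For rpl36 the signals were 301, 235, 219, 288, 205, 243, 202, 233, 241 and 281, and the fitted range was 0.36 (limma F test, adjusted p = 0.577). For rpl20 they were 67.3, 67.1 and 53.6 in the late samples and 49.7, 50.4 and 67.9 in the early ones, with the highest value of 69.8 at 6 h and a fitted range of 0.52 (adjusted p = 0.511). Both had late and early windows that overlapped.

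For the small subunit limma called 0 of 11 over time (2 at an unadjusted p under 0.05, rps2 and rps19). The widest fitted range, 1.33, was that of rps2, with signals of 224, 119.7, 101, 96.6, 71.2, 103, 107, 111, 84.0 and 100.3 (limma F test, adjusted p = 0.0857). The 0 h sample stood apart at 2.21 times the median of the 9 others. It was called when the 2 h array was left out (adjusted p = 0.0285) and with 3 spline terms (0.0463), while leaving out 0 h brought the fitted range to 0.52 (adjusted p = 0.544).

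The next widest, rps7, had 195, 164, 290.1, 321, 202, 143, 156, 213, 152 and 130.4, highest at 4 h and 6 h (fitted range 1.13; limma F test, adjusted p = 0.234). It was called when 0 h (adjusted p = 0.00699), 2 h (0.0101) or both arrays (0.0298) were left out. Those fits called 21.3%, 13.5% and 9.02% of all tested probe sets, against 5.57% with all arrays. For rps19 the signals were 821 at 0 h, 544 at 6 h and 849.6 at 19 h, high at both ends and lowest at 6 h (fitted range 0.55; limma F test, adjusted p = 0.0776). Without the 2 h array it was called (adjusted p = 0.0312).

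At the other end of the small subunit, rps15 and rps16 each had a fitted range of 0.33 (limma F test, adjusted p = 0.920 and 0.702). The signals of rps15 were 73.9 at 14 h and between 37.0 at 10 h and 50.1 at 8 h in the other samples, with the 14 h sample above the rest. Those of rps16 lay between 61.9 at 12 h and 81.2 at 4 h. The transcript of rps12 is joined from separately transcribed pieces. Its 2 probe sets differed in where they were highest, at 6 h with 38.5 and at 8 h with 45.2. They also differed in where they were lowest, at 10 h with 21.1 and at 19 h with 19.5.

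The signals of rps4 were between 1096 at 6 h and 1493 at 10 h and those of rps3 between 984 at 6 h and 1453 at 19 h, with every late sample above every early one in both. The late window was 0.21 (SE 0.12) above the early window for rps4 and 0.24 (SE 0.12) for rps3 (limma, adjusted p = 0.319 and 0.245). For rps14 the signals lay between 36.1 at 2 h and 56.6 at 0 h.

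Of the 8 other genes limma called 0 over time (2 at an unadjusted p under 0.05, ycf1 and matK). The proteolytic subunit of the Clp protease, clpP, had the widest fitted range, 1.25 (limma F test, adjusted p = 0.253). Its signals were 655, 231, 228, 301, 279, 266, 324, 295, 391 and 289. The 0 h sample was 2.27 times the median of the rest. The other 9 lay between 228 at 4 h and 391 at 16 h, and were lowest at 2 h and 4 h.

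For ycf1, a protein of the inner envelope, the signals were 506, 387, 346, 324, 318, 338, 419, 361, 436 and 581, low between 6 h and 10 h and high at both ends. The fitted range was 0.83, just outside the threshold (limma F test, adjusted p = 0.05003). It passed on leaving out 0 h (adjusted p = 0.0219), 2 h (0.0151) or both (0.0213), with the 60th percentile filter (0.0435), with robust moderation (0.0454) and with 3 spline terms (0.0355). The intron maturase gene matK had 587, 374, 335, 302, 356, 311, 315, 368, 402 and 370.3, highest at 0 h, and a fitted range of 0.87 (adjusted p = 0.0982; 0.0364 without the 2 h array). Leaving out 0 h brought its fitted range to 0.28 (adjusted p = 0.423).

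The signals of ycf2, whose product belongs to a complex of the inner envelope, were 26.9, 24.3, 44.8, 56.1, 40.3, 32.3, 29.2, 44.3, 34.9 and 32.5, highest at 6 h (fitted range 1.00; limma F test, adjusted p = 0.478). The flattest course of all 32 was that of accD, the plastid-encoded subunit of acetyl-CoA carboxylase, with 88.1, 89.9, 94.0, 103, 98.2, 96.6, 97.7, 110.2, 98.1 and 85.3 and a fitted range of 0.28 (adjusted p = 0.643). For ycf3, an assembly factor of photosystem I, the signals lay between 67.1 at 2 h and 114 at 6 h (fitted range 0.36; adjusted p = 0.793). Those of ycf4, which serves the same assembly, lay between 63.8 at 8 h and 123 at 14 h. The envelope protein gene cemA gave 173 at 0 h and 70.5 at 2 h, its highest and lowest values.

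The window differences are given by class, and no test between classes was made. In the middle against the early window the median difference was -0.03 for the polymerase genes, -0.05 for the small subunit, -0.13 for the large subunit and -0.04 for the other genes. Over all tested probe sets it was 0.07. In all, 12 of the 32 were above 0, against 58.8% of all tested, and limma called 0, where 1.13% of all tested probe sets were called, 0.52% higher and 0.608% lower. At an unadjusted p under 0.05 there were 4, all lower (rpl32, rpoA, rps2 and matK), against 21.7% of all tested, 13.9% higher and 7.81% lower. In the late against the middle window the medians were 0.13, 0.10, 0.26 and 0.12 in the same order of classes, and 0.01 over all tested. Here 24 of 32 were above 0, against 52.7% of all tested, and limma called 0, where 0% of all tested probe sets were called. At an unadjusted p under 0.05 there were 4, all higher (rpoA, rpl14, rpl22 and rpl2), against 5.03% of all tested, 2.43% higher and 2.59% lower. In the late against the early window the medians were 0.18, 0.01, 0.09 and 0.04, and 0.09 over all tested. There 20 of 32 were above 0, against 59.4% of all tested. At an unadjusted p under 0.05 there were 2 higher (rpl22 and rpl33) and 1 lower (rpl32), against 23.7% of all tested, 15% higher and 8.7% lower.

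Arrays were scaled by the trimmed mean, by median centring and by quantile normalization. In late against early the sign of the median rested on the scaling for the 32 and for each class but the polymerase. The polymerase median was 0.18, 0.03 and 0.13 in that order. In the other 2 comparisons the median of the 32 and of each class kept its sign with all 3 scalings. Centring each array on its median moved the median of all tested probe sets in late against early to -0.06, with 12 of 32 members above 0. It also turned the share of higher calls among all calls to 23.9%, against 55.8% with the trimmed mean (58.4% with quantile normalization). Relative to the median of all tested, the members' median with the trimmed mean was -0.18 in middle against early and 0.10 in late against middle. In late against early this relative median was -0.02. Centring shifts all probe sets of an array by the same amount, so it could not change these values, apart from signals at the floor. Only quantile normalization could, and it gave -0.18, 0.10 and 0.02 in the same order. Without the 0 h array the median of the 32 in middle against early was 0.07, that of the polymerase genes 0.15 and that of the other genes 0.18. Without the 10 h array that of the small subunit was 0.02.

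**Figure D2:**
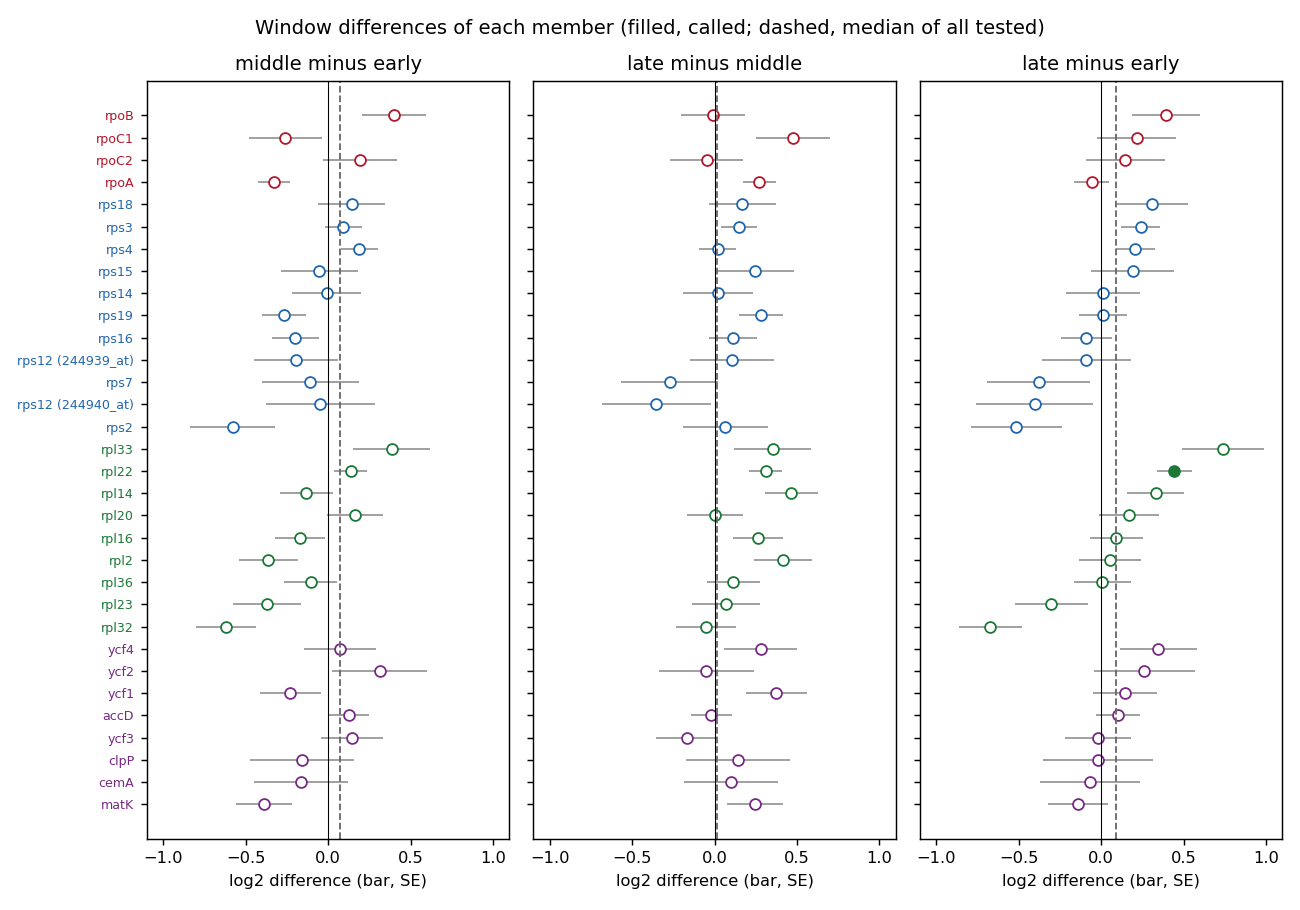
Difference in mean log2 signal between windows for each of the 32 probe sets, with bars for the SE of the limma contrast, coloured by class (red polymerase, blue small subunit, green large subunit, purple other). The single filled point is rpl22 at 0.44 in late minus early, the only member past an adjusted p of 0.05, and the dashed lines mark the median of all tested probe sets.

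The time at which each gene was highest or lowest was looked at after its values had been seen, so it is a description. Of the 32 probe sets 11 were highest at 0 h and 7 at 19 h, against 13.2% and 9.42% of all tested, and the 18 at either time compare with 22.6%. They were lowest between 6 h and 12 h in 16 cases, against 27.2% of all tested. Of the tested plastid photosynthesis probe sets 17 of 43 were lowest between these times, and of the mitochondrial ones 3 of 16. At 2 h 6 of the 32 were lowest, against 29.5% of all tested. By class, the highest value fell at 0 h or 19 h for 2 of 4 polymerase, 5 of 11 small subunit, 7 of 9 large subunit and 4 of 8 other probe sets. For the 43 tested probe sets of plastid photosynthesis genes, which share the plastid with the genes above, this count was 16, and for 16 tested probe sets of mitochondrial genes it was 3. All of the counts of highest values share the same 2 end arrays, and no test of the difference between the groups of genes was made.

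As deviations from each gene's own mean, the class medians at 0 h were 0.30 for polymerase, 0.19 for small subunit, 0.19 for large subunit and 0.26 for other genes. At 2 h they were -0.18, -0.05, -0.14 and -0.39, and at 10 h -0.07, -0.11, -0.18 and -0.22. At 19 h they were 0.23, 0.04, 0.39 and -0.13, the time at which the classes lay farthest apart. Over all tested probe sets the medians were -0.03 at 0 h, -0.13 at 2 h, 0.01 at 10 h and 0.0007 at 19 h. All 4 polymerase genes were above their own mean at 19 h, and 7 of 9 of the large subunit, while 6 of 11 of the small subunit and 2 of 8 other genes were. Of all tested probe sets, 6837 of 13647 were above their own mean at 19 h.

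**Figure D3:**
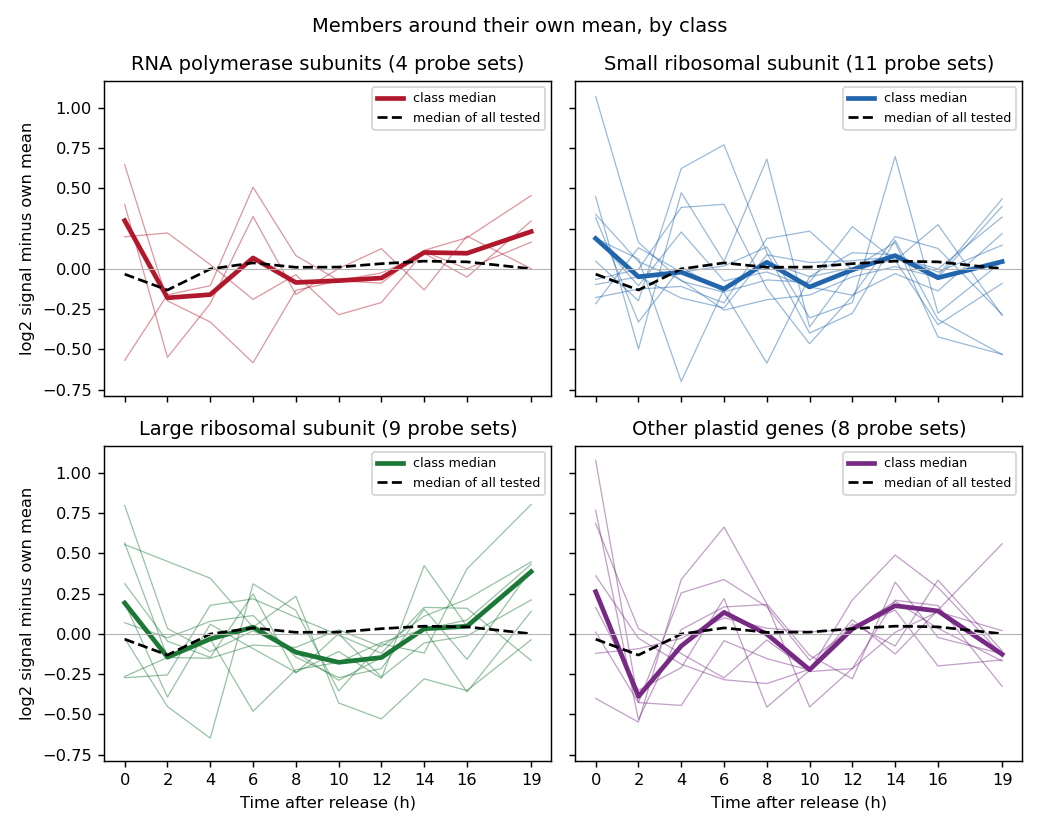
Log2 signal of each probe set less its own mean over the 10 arrays, against time after release in hours, in 4 panels by class. Thin lines are probe sets, thick lines the class median and dashed lines the median of all tested probe sets. Class medians start between 0.19 and 0.30 at 0 h, and at 19 h the large subunit is at 0.39 and the other genes at -0.13.

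Between single times there was 1 array on each side and no test. From 0 h to 2 h, 12 of the 32 were lower by over 0.5 log2 units and 0 were higher by as much, where 20.2% of all tested probe sets were lower and 12.4% higher. The 12 were clpP (-1.50), cemA (-1.30), rpoC2 (-0.95), 1 of the rps12 probe sets (-0.95), rps2 (-0.90), rpoC1 (-0.84), rpl23 (-0.76), rpl2 (-0.71), matK (-0.65), rps14 (-0.65), rpl14 (-0.58) and ycf4 (-0.51). They came from all 4 classes, and rpoB stood out on the other side with 0.41. Of the photosynthesis genes of the plastid 12 of 43 and of the mitochondrial genes 5 of 16 were lower by as much. Between 16 h and 19 h, 1 member was higher by over 0.5, rpl16 (0.56), and 2 were lower, cemA (-0.50) and rps14 (-0.56), where 3.85% of all tested were higher and 9.52% lower. In this interval the median of the 32 was 0.23, against -0.03 over all tested.

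Genes that are neighbours on the plastid genome were set side by side in the order of the RefSeq annotation of TAIR10.1, which was used for order only. The long ribosomal protein cluster, which is known to be transcribed together and ends with rpoA, had 8 further genes with a member probe set. At its head, rpl23 and rpl2 were highest at 0 h, with 613 and 1032, and had 389 and 942 at 19 h. The next genes, rps19, rpl22 and rps3, were highest at 19 h with 849.6, 1085 and 1453. Further on, rpl16 was highest at 19 h with 204, rpl14 at 14 h with 171 and rpl36 at 0 h with 301, and rpoA was highest at 2 h with 749. So 7 of these 9 genes were highest at 0 h or 19 h, against 22.6% of all tested probe sets. Which of the 2 ends was higher differed from gene to gene. The ends were close for rps19 (821 at 0 h, 849.6 at 19 h) and rpl36 (301 and 281). They were farther apart for rpl23 (613 and 389) and rpl22 (663 and 1085). Neither end had a replicate and of the 9 only rpl22 was called over time, so the balance between the ends was not told from scatter. The neighbours rps2, rpoC2 and rpoC1 were all highest at 0 h, and rpoB beside them lowest there. Of the genes listed more than once, ycf2 and rps7 were highest at 6 h, rpl2 and rpl23 at 0 h, ycf1 at 19 h and the 2 probe sets of rps12 at 6 h and 8 h. The photosynthesis gene ndhB, between ycf2 and rps7, was highest at 14 h.

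**Figure D4:**
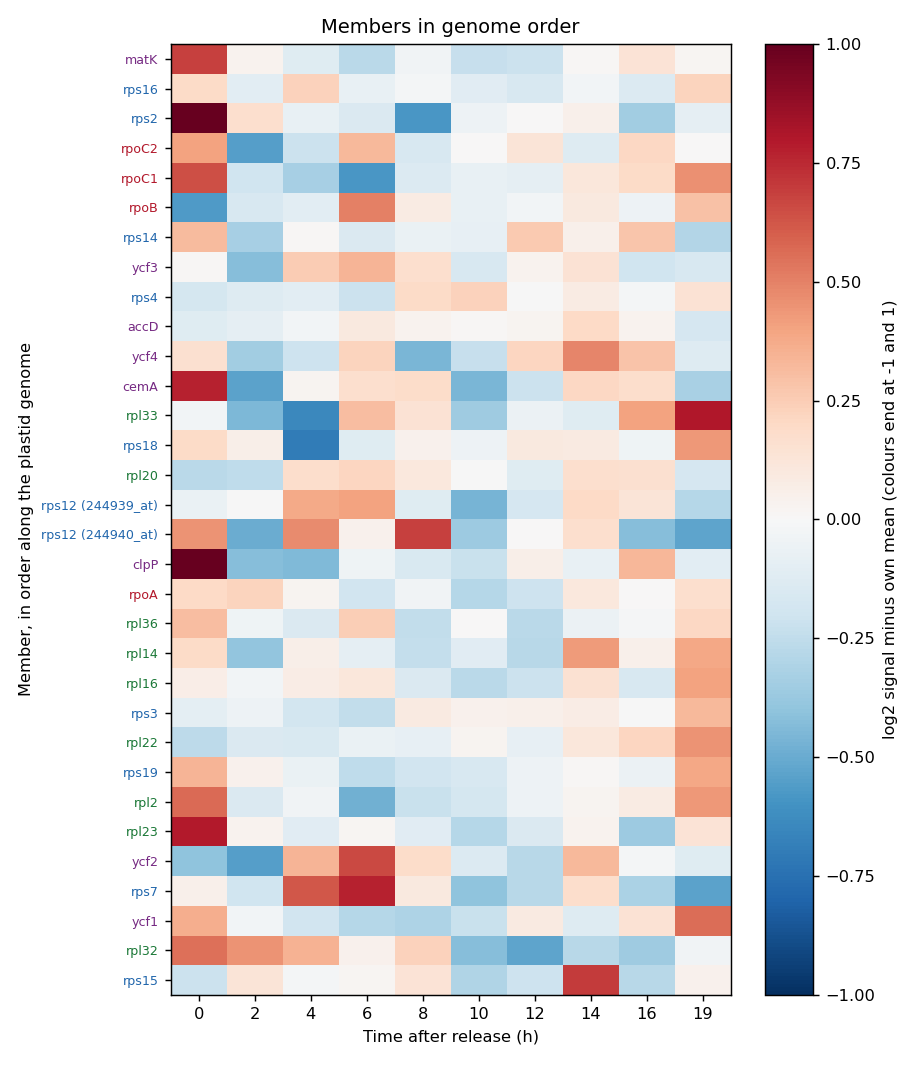
Log2 signal less each probe set's own mean, as colour (red above, blue below, colours end at -1 and 1), with time after release in hours from left to right and the 32 probe sets in their order along the plastid genome from top to bottom, names coloured by class as in the plot of window differences. The first column is reddest for clpP and rps2, and the row of rpoB is blue there.

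The nuclear partners of this machinery were thinly covered in the annotation used. Of 6 sigma factors, 13 proteins associated with the plastid polymerase and 4 nuclear subunits of the carboxylase, 0 had a probe set named, so nothing is said of them. The list of nuclear-encoded organelle RNA polymerases had 1 of 3 genes, AT5G15700, whose product works in mitochondria and plastids. It gave 57.5, 57.4, 79.0, 108, 83.2, 85.4, 53.5, 57.7, 91.7 and 101 and was not called (limma F test, adjusted p = 0.239). Of 30 nuclear genes for plastid ribosomal proteins 6 had a probe set, and limma called 0 over time (1 at an unadjusted p under 0.05, AT5G65220). Their median was 0.37 in late against early, with 5 of 6 above 0, against 0.09 for the plastid-encoded large subunit and 0.01 for the small subunit. The highest difference was that of AT4G01310 at 0.72 (SE 0.23, adjusted p = 0.0971), with 176 at 2 h and 525 at 8 h, and the lowest was AT3G54210 at -0.14 (SE 0.15). Of 14 nuclear Clp subunits 5 had a probe set, and limma called 0 over time (1 at an unadjusted p under 0.05, AT4G25370). Their median in late against early was 0.04, with AT4G25370 highest at 0.86 (SE 0.41, adjusted p = 0.230) and AT1G68660 lowest at -0.18 (SE 0.15). The signal of AT4G25370 was 14.4 at 0 h, near the floor of 12.1, and between 42.5 and 65.9 at the other times.

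Among the plastid photosynthesis genes 1 of 43 was called in the time course, petB, whose signals of 837 at 0 h, 497 at 4 h and 934 at 19 h were also high at both ends (limma F test, adjusted p = 0.0251). In late against early, ndhG was called at 0.73 (SE 0.14, adjusted p = 0.0276). The median there was 0.24, with 33 of 43 above 0, against 0.07 for the 32, with 20 above 0. The difference between these groups of genes was not tested.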

How the data were processed

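The deposited table holds intensity values, 1 MAS5 signal per probe set and array, made by the authors from biotin-labelled total RNA, per the labels and the submitters' processing notes; the MAS5 version and the priming of the label were not given in the sources used here. Samples were placed by the time in their titles. Here, 64 control probe sets were left out, and arrays were scaled so that the mean after trimming 2% came to 100. A floor of 12.1, the 25th percentile over the table, was set before log2. Probe sets with a mean signal above the 40th percentile were tested. With R 4.3.3 and limma 3.58.1, a natural cubic spline of time (4 degrees of freedom, moderated F test) and 3 window contrasts were fitted over all 13647 probe sets, with eBayes fitting a mean trend, and p-values were adjusted by Benjamini-Hochberg; an adjusted p under 0.05 was called. The fits were run on simulated data with independent scatter and added changes of the shapes that the fits model. That run could check the code only, not the calls made on a single course. The number of arrays limits the precision.

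Gene names came from the platform annotation, and a probe set counted as plastid where all of its gene IDs lay on the plastid genome in RefSeq (TAIR10.1). Mitochondrial probe sets were taken by symbol (nad, cox, ccb, orf and matR), since the locus codes planned for this were not in the annotation. Values at every time are given for called members, all rpo genes and, in each other class, the 2 widest and 2 narrowest fitted ranges, in full or by their extremes; further members are named for completeness. The members and lists were chosen with earlier results of these data known. Alternatives were another floor, filter, scaling, moderation, spline and window, and leaving out arrays.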

Additional observations from a re-analysis of the deposited data

How the results depend on the processing

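No paired analysis was possible because each time had 1 array. Leaving out 1 array in turn gave 0 to 9 members called over time, 0 to 1 in middle against early and 0 to 1 in late against early. The 3 calls over time compare with 6 on dropping 0 h, 9 on dropping 2 h, 1 on dropping 8 h and 0 on dropping 4, 6, 10, 12, 14, 16 or 19 h. In the fits with 0 calls on dropping 1 array, limma had 9 to 12 of the 32 at an unadjusted p under 0.05. Of all tested probe sets, 5.57% were called with all arrays, 21.3% on dropping 0 h, 13.5% on dropping 2 h, 2.33% on dropping 8 h and 1.73% to 3.61% on dropping another array. The count was 1 without the filter, 2 with median centring, 1 with quantile normalization and 0 without a mean trend. Those fits called 1.24%, 4.42%, 5.69% and 3.39% of all probe sets tested. Members called were 6 with 3 spline terms, 0 with 5, and 6 when 0 h and 2 h were both dropped. There the shares of all tested were 6.4%, 4.35% and 9.02%. Late against early had 0 in place of 1 without the filter, with median centring, without a mean trend and with 6 h moved to the early window. With median centring 95 of all tested probe sets were called higher there and 303 lower, against 309 and 245 with the trimmed mean.

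Class medians moved as follows. With the 60th percentile filter, which 2 of 4 polymerase genes passed (rpoA and rpoC1), their median was -0.29 in middle against early and 0.37 in late against middle. With median centring, middle against early gave -0.23 for all members and -0.18 for the small subunit, and late against early -0.080 and -0.14. With quantile normalization the small subunit had -0.17 in middle against early and -0.12 in late against early. With 0 h and 2 h both dropped, the polymerase median in middle against early was 0.17. Dropping 1 array at a time, medians in middle against early ran between -0.22 and 0.066 for all members, -0.16 and 0.15 for the polymerase, -0.25 and 0.017 for the small subunit and -0.15 and 0.18 for the other genes. In late against early the small subunit ran between -0.14 and 0.10. Apart from the filter, which left fewer genes, the cause of these shifts was not tested. With 1 array per time, no measure of error at a single time could be had.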
